A study of Homo sapiens with 6 samples.

Results

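The genes described here encode the folding and quality-control machinery of the endoplasmic reticulum (ER). They are 36 of the 16327 protein-coding genes whose counts could be summed, and were chosen by gene symbol as ER chaperones, disulfide isomerases and oxidases, factors of ER-associated degradation, translocation and export factors, and a further pair of ER proteins. This choice was made with earlier results of these data known. Of the 36, 35 had enough counts to be tested. RNA was sequenced from HN12 cells, a human head and neck squamous carcinoma line, after 24 h with CPI-613 (3 libraries) or with its solvent DMSO (Control, 3 libraries). CPI-613, also called devimistat, resembles lipoate and is aimed at the lipoate-bearing enzyme complexes of mitochondria that feed the citric acid cycle. Its dose is not given in the sources used here. Both groups were the same parental line in the same medium, with no genetic change named. No label names the replicates as separate cultures, and p-values therefore reflect only how far these 6 libraries vary, and that variation may be technical.

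Secreted and membrane proteins enter the ER through the Sec61 channel and fold there with the help of chaperones such as BiP, of lectins that hold glycoproteins, and of isomerases that form disulfide bonds. Proteins that fail to fold are recognised by mannosidase-like EDEM proteins, moved back through a membrane complex built on the ligase HRD1 (gene SYVN1), and destroyed by the proteasome, a route called ER-associated degradation. When unfolded proteins build up, the sensors IRE1, PERK and ATF6 start the unfolded protein response, whose factors XBP1, ATF6 and ATF4 are known to switch on many of these genes through elements in their promoters.

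Promoter sequence is shown first for the members in which an element of the unfolded protein response was found and to which the results return. The elements searched were the ER stress response element ERSE (CCAAT, 9 bases of any kind, then CCACG), its variant ERSE-II (ATTGG, 1 base of any kind, then CCACG), and the 8-base motifs TGACGTGG and TGACGTGA, on both strands of the window from 250 bases before to 50 bases after the RefSeq start (GRCh38.p14). The sequences run 5′ to 3′ along the gene's own strand over the 250 bases before the start, and capitals mark matches to these motifs. HSPA5 (chr9:125241344-125241593, minus strand), HERPUD1 (chr16:56931892-56932141, plus strand) and HYOU1 (chr11:119057206-119057455, minus strand) are shown because they were called higher with CPI-613 in at least 1 of the fits below. HSP90B1 (chr12:103930160-103930409, plus strand), CALR (chr19:12938359-12938608, plus strand) and SDF2L1 (chr22:21642052-21642301, plus strand) are shown because they hold the same kind of element and were called in neither fit. In HYOU1 the first run of capitals joins a TGACGTGG match and an ERSE-II match on the other strand that overlap.
HSPA5: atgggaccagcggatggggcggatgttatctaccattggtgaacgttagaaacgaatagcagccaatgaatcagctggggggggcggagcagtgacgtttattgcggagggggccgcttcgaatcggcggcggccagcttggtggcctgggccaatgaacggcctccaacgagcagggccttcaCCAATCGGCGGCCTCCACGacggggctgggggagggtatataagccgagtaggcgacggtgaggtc
HERPUD1: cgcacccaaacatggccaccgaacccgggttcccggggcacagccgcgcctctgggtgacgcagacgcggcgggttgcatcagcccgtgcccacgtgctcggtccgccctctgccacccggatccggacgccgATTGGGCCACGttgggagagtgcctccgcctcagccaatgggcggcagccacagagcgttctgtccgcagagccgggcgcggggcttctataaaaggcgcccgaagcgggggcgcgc
HYOU1: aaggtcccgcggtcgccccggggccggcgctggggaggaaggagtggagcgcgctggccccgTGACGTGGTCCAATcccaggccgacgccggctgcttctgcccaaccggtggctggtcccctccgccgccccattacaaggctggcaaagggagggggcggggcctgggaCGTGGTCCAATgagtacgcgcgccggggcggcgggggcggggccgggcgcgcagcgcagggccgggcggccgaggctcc
HSP90B1: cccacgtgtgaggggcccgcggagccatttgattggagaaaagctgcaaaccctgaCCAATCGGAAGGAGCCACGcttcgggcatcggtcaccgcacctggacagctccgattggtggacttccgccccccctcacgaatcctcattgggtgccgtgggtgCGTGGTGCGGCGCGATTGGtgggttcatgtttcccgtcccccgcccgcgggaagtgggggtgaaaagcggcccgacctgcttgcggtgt
CALR: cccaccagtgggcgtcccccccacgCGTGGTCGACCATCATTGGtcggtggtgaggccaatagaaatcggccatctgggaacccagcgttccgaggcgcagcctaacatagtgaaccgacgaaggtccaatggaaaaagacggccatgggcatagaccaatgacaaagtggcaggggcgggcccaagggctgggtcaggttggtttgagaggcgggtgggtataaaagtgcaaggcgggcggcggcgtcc
SDF2L1: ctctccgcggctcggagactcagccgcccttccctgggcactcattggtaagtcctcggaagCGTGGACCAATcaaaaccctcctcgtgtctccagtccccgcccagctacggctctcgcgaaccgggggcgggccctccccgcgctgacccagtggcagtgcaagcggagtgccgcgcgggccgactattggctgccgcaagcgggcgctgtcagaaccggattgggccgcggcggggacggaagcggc

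Of the 36 members, 32 had a promoter in the RefSeq table (not PDIA3, DERL1, DERL3 and SEC24D). An ERSE lay in 6 of the 32 promoters (18.8%), against 0.0806% of the 27305 promoters in the table and 0.135% of the 10379 promoters of tested genes. ERSE-II lay in 3 of the 32 (9.38%), against 0.0549% of all promoters and 0.106% of those of tested genes. The members are part of these backgrounds, with 6 of the 14 ERSE and 3 of the 11 ERSE-II promoters of tested genes. Many members are known targets of the response whose elements were searched, so the excess is no independent finding. It was not tested. HSP90B1 held an ERSE on each strand, beginning 194 and 89 bases before the start, and HYOU1 held an ERSE-II match at 185 and at 79 bases before it. The other ERSE holders were HSPA5 at 66, CRELD2 at 80, CANX at 151, CALR at 225 and ERO1B at 243 bases before the start, and the other ERSE-II holders were HERPUD1 at 117 and SDF2L1 at 188. TGACGTGG occurred in HYOU1 and in DNAJC10 (6.25% of the 32, against 0.795% of all promoters), and TGACGTGA occurred in no member's window (0.407% of all promoters). Elements that the search spells differently or that lie outside the window were not counted, and a match is a description of the letters, not of a bound site.

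**Figure D1:**
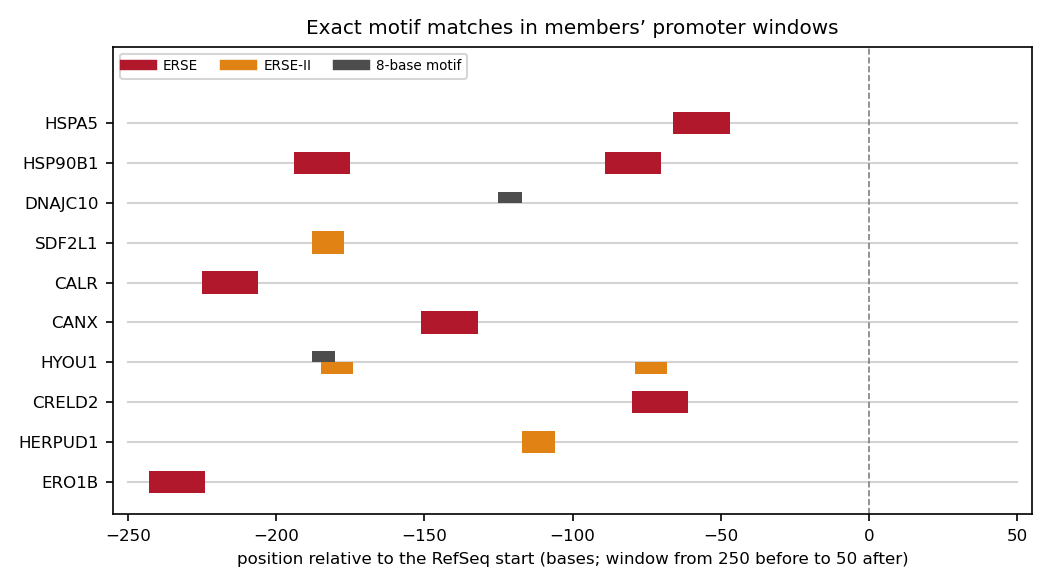
Positions of exact motif matches in the promoter windows of the 10 members that hold any, with the base position relative to the RefSeq start on the horizontal axis and the gene on the vertical axis. Red boxes are ERSE, orange boxes ERSE-II and grey boxes the 8-base motif, and the matches lie between 243 and 66 bases before the start (first base of the match).

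With CPI-613 HERPUD1 was the only member to pass the test over all genes, while most members' estimates lay modestly above 0. In edgeR's quasi-likelihood test on the summed counts, with Benjamini-Hochberg adjustment over all 12671 tested genes at 0.05, 1 of 35 tested members rose (2.86%) and 0 fell, where 1.94% of all tested genes were called higher and 1.24% lower. That 1 call ended without CPI-613 replicate 2, Control replicate 1 or Control replicate 3, where 7, 0 and 0 genes were called in all. When p was left unadjusted, 12 members were higher at p under 0.05 and 0 were lower, where 8.45% of all tested genes were higher. DESeq2 called 3 members higher and 0 lower (HSPA5, SELENOS and HERPUD1), where it called 3.87% of all tested genes higher, and limma-voom called 2 (HSPA5 and HERPUD1), where it called 1.95% higher. The members' median log2 fold change was 0.40, against 0.02 over all tested genes, and 30 estimates lay above 0 and 5 below. Scaled by library size only, the members' median was 0.20 and that of all genes -0.17. A change of scaling moves all genes by nearly the same amount, so this is no separate check of the gap between these medians.

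CPI-613 libraries and Control libraries did not overlap in CPM (counts scaled to library size, here with TMM factors) in 14 members, all higher with CPI-613, where 11.8% of all tested genes lay wholly above and 9.17% wholly below. Summed over all members, CPM was 14305, 15192 and 14058 in CPI-613 replicates 1 to 3, against 11105, 10767 and 11243 in Control replicates 1 to 3. As a share of all counts, without TMM scaling, the same sum was 1.49%, 1.42% and 1.17% in the CPI-613 libraries and 1.23%, 1.11% and 1.21% in the Control libraries. The summed CPM did not overlap between the groups, whereas the shares did, with CPI-613 replicate 3 inside the Control range. The sums lean on HSPA5, which alone supplied 3969, 4057 and 2929 CPM with CPI-613, against 1892, 1769 and 1764 CPM in Control. Fewer cells and less RNA per cell cannot be told apart in these bulk samples.

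The libraries also differed within their group along the GC content of the transcripts, which touches each member's values. The log2 difference in CPM between CPI-613 replicate 3 and CPI-613 replicate 1 ranged over the members from -3.32 for EDEM3 (38.6% GC) to 1.33 for SDF2L1 (65.5% GC). It was correlated across the 35 members with GC content (Pearson r = 0.77, and 0.76 over 12601 genes; genes share the libraries, so this is a description). Among the 17 members of lower GC content its median was -1.35, and among the 18 of higher GC content 0.70. Control replicate 2 differed from the mean of Control replicates 1 and 3 along the same axis, by -0.97 to 0.58 (r = 0.78 across the members). The edgeR fit was therefore repeated after each library's trend over GC content and transcript length was removed, and its values are called GC-adjusted below. In that fit the correlation of the replicate difference with GC content was -0.01 for the CPI-613 pair and 0.25 for the Control libraries. Lower correlations follow from subtracting the trend and are no separate check of the adjustment. Differences between those replicates remained, from -1.5 for HSP90B1 to 2.01 for DERL2 in the CPI-613 pair. In 8 of the 35 members that difference was wider than before adjustment, as in DERL2 (2.01 after, 0.31 before), SELENOK (1.47 after, 0.74 before), PDIA3 (1.04 after, 0.17 before) and DERL1 (0.89 after, 0.27 before).

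**Figure D2:**
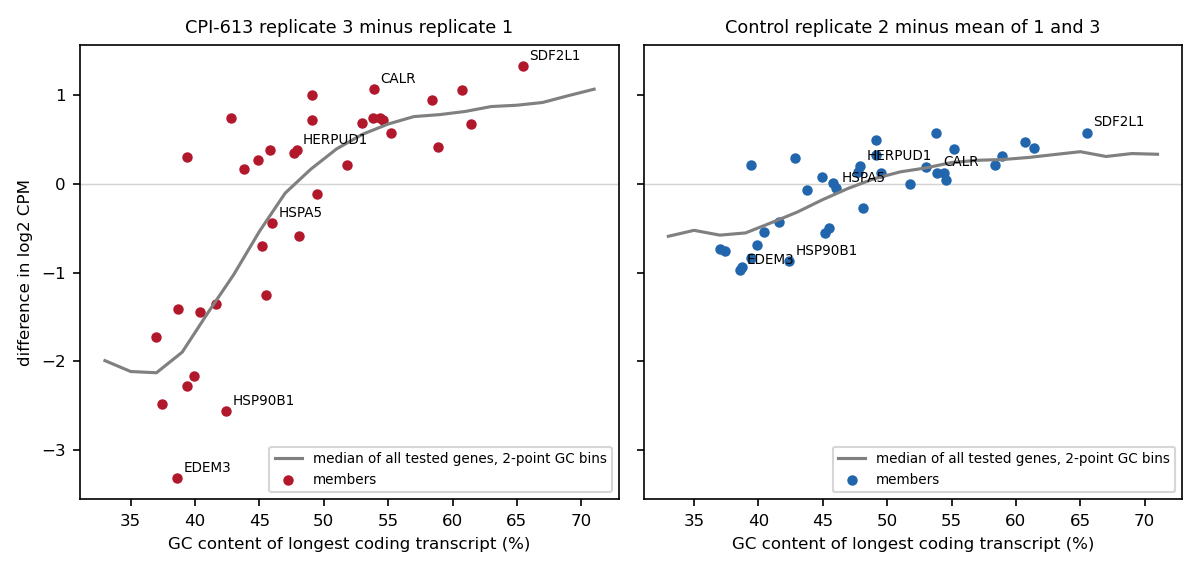
Differences between libraries of the same group in log2 CPM (vertical axes) against GC content of the longest coding transcript in percent (horizontal axes). Points are the 35 tested members and the line is the median of all tested genes in GC bins 2 percentage points wide. In the CPI-613 pair the members run from -3.32 (EDEM3) to 1.33 (SDF2L1) with the trend of all genes, and in the Control libraries from -0.97 to 0.58.

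In the GC-adjusted fit 12 of the 35 members rose with CPI-613 (34.3%) and 0 fell, where 6.61% of all tested genes were called higher and 5.0% lower. Because the members were chosen with earlier results of these data known, the gap between these shares is no independent finding. The 12 were HSPA5, DNAJB9, DNAJC10, HYOU1, HERPUD1, SELENOS, SYVN1, EDEM1, EDEM2, SEC61A1, SEC61B and CREB3L2, of which 11 were also among the 12 higher at an unadjusted p under 0.05 before adjustment. The median log2 fold change was 0.43, against 0.04 over all tested genes. HSPA5, DNAJB9, HERPUD1 and EDEM1 were called in all 6 GC-adjusted fits that left out 1 library each. The count fell to 4 without CPI-613 replicate 2, Control replicate 1 or Control replicate 3, where 2.73%, 2.74% and 2.85% of all tested genes were called higher. It was 18 without CPI-613 replicate 1, 17 higher and EDEM3 lower, where 11.6% of all tested genes were called higher and 9.06% lower. By subgroup, the called share in the GC-adjusted fit was 5 of 10 tested degradation factors, 4 of 13 chaperones, 2 of 3 translocation and export factors and 1 of 2 other ER proteins, and 0 of 7 disulfide enzymes. Differences between these shares were not tested.

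**Figure D3:**
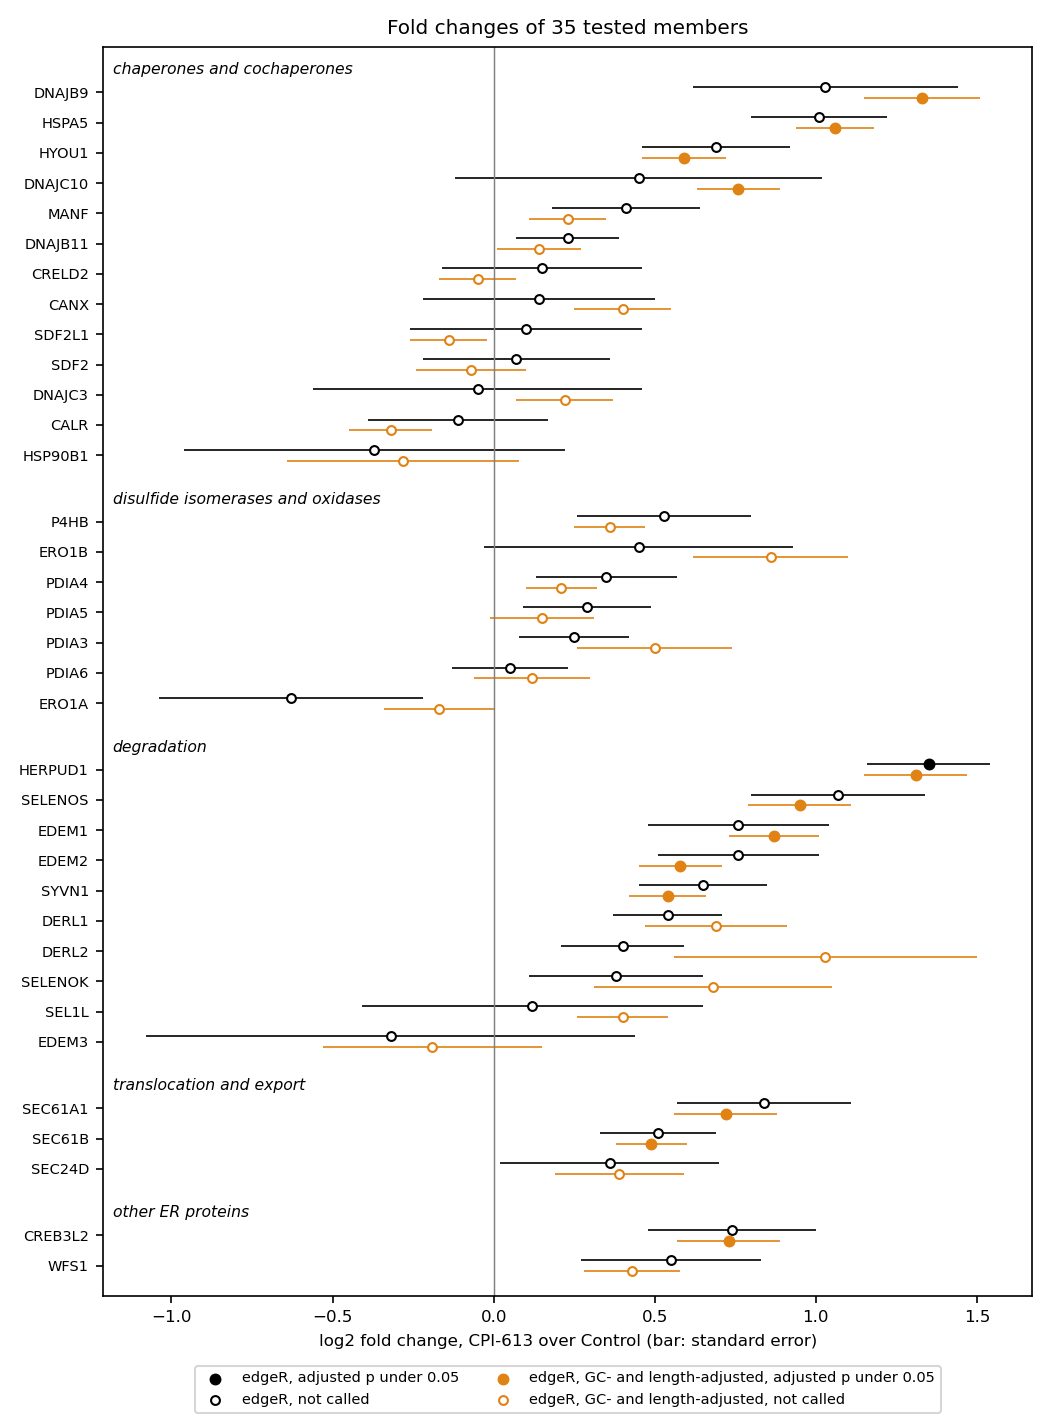
Log2 fold changes of the 35 tested members, CPI-613 over Control, from edgeR (black) and from the GC- and length-adjusted edgeR fit (orange), with bars of 1 standard error and filled symbols for an adjusted p under 0.05. HERPUD1 alone is filled in black, 12 members are filled in orange, and the bars of HSP90B1, EDEM3, DNAJC10, DNAJC3 and SEL1L are shorter in orange than in black.

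Among the 13 chaperones and cochaperones BiP, the main ER chaperone of the HSP70 family, stood 2.02-fold higher with CPI-613 and passed the test after GC adjustment, whereas the HSP90 family chaperone and the lectins were called in neither fit. HSPA5, which encodes BiP, had 3969, 4057 and 2929 CPM in CPI-613 replicates 1 to 3, against 1892, 1769 and 1764 CPM in Control replicates 1 to 3. Every CPI-613 library lay above every Control library, with replicate 3 lowest among the treated ones. The log2 fold change was 1.01 (SE 0.21), just short of the threshold in edgeR (Benjamini-Hochberg adjusted p = 0.0505). With GC adjustment it passed, at 1.06 (SE 0.12; edgeR, Benjamini-Hochberg adjusted p = 0.00181). Over the 25 alternatives HSPA5 was called in 12, with an adjusted p of 0.000508 to 0.315.

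The J proteins DNAJB9 (ERdj4) and DNAJC10 (ERdj5), which hand clients to BiP, were lowest among the CPI-613 libraries in replicate 3, and both transcripts are GC-poor (40.4% and 37.4%). DNAJB9 had 29.02, 25.22 and 10.61 CPM in the CPI-613 libraries, against 11.21, 8.076 and 12.53 CPM in the Control libraries, so that CPI-613 replicate 3 lay within the Control range. GC-adjusted, the values were 21.22, 27.66 and 20.45 CPM with CPI-613 and 9.339, 8.547 and 9.857 CPM in Control, which did not overlap. DNAJB9 gave a log2 fold change of 1.03 (SE 0.41; edgeR, Benjamini-Hochberg adjusted p = 0.31) and, GC-adjusted, 1.33 (SE 0.18; adjusted p = 0.00342). DNAJC10, which also reduces disulfides of degradation clients and is named after its values were seen, had 272.7, 124.8 and 48.73 CPM with CPI-613, against 124.2, 74.24 and 128 CPM in Control. The range of its CPI-613 libraries enclosed all Control libraries. GC-adjusted, DNAJC10 stood at 161, 151.9 and 125.3 CPM with CPI-613 and at 87.28, 86.43 and 85.4 CPM in Control, a log2 fold change of 0.76 (SE 0.13; edgeR, Benjamini-Hochberg adjusted p = 0.00837), against 0.45 (SE 0.57; adjusted p = 0.801) without adjustment.

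HYOU1, a large relative of HSP70 that exchanges the nucleotide of BiP, had 742.1, 912.2 and 1107 CPM with CPI-613, against 532.4, 679.1 and 494.4 CPM in Control. The groups did not overlap. Its log2 fold change was 0.69 (SE 0.23; edgeR, Benjamini-Hochberg adjusted p = 0.194) and, GC-adjusted, 0.59 (SE 0.13; adjusted p = 0.0268). HSP90B1, which encodes the HSP90 family chaperone GRP94, had 1572, 691.7 and 266.5 CPM with CPI-613, against 1182, 703.2 and 1392 CPM in Control. CPI-613 replicate 1 was the highest of the 6 libraries and replicate 3 the lowest. Its log2 fold change was -0.37 (SE 0.59) and, GC-adjusted, -0.28 (SE 0.36), with CPI-613 libraries still at 1237, 714.1 and 438.7 CPM after adjustment, against 1024, 732.7 and 1155 CPM in Control.

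CALR, which encodes the lectin calreticulin, had 951.5, 1486 and 1991 CPM with CPI-613, against 1507, 1696 and 1590 CPM in Control. The groups overlapped, with CPI-613 replicate 3 highest and replicate 1 lowest. CALR gave a log2 fold change of -0.11 (SE 0.28) and, GC-adjusted, -0.32 (SE 0.13; edgeR, Benjamini-Hochberg adjusted p = 0.189). GC-adjusted, the CPI-613 libraries stood at 1163, 1417 and 1471 CPM, below the 1666, 1587 and 1786 CPM of the Control libraries. The other 7 chaperones were the membrane lectin calnexin (CANX), the J proteins DNAJB11 and DNAJC3, SDF2, SDF2L1, CRELD2 and the secreted factor MANF. Their log2 fold changes ranged from -0.05 to 0.41 and, GC-adjusted, from -0.14 to 0.40, and none was called in either fit.

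**Figure D4:**
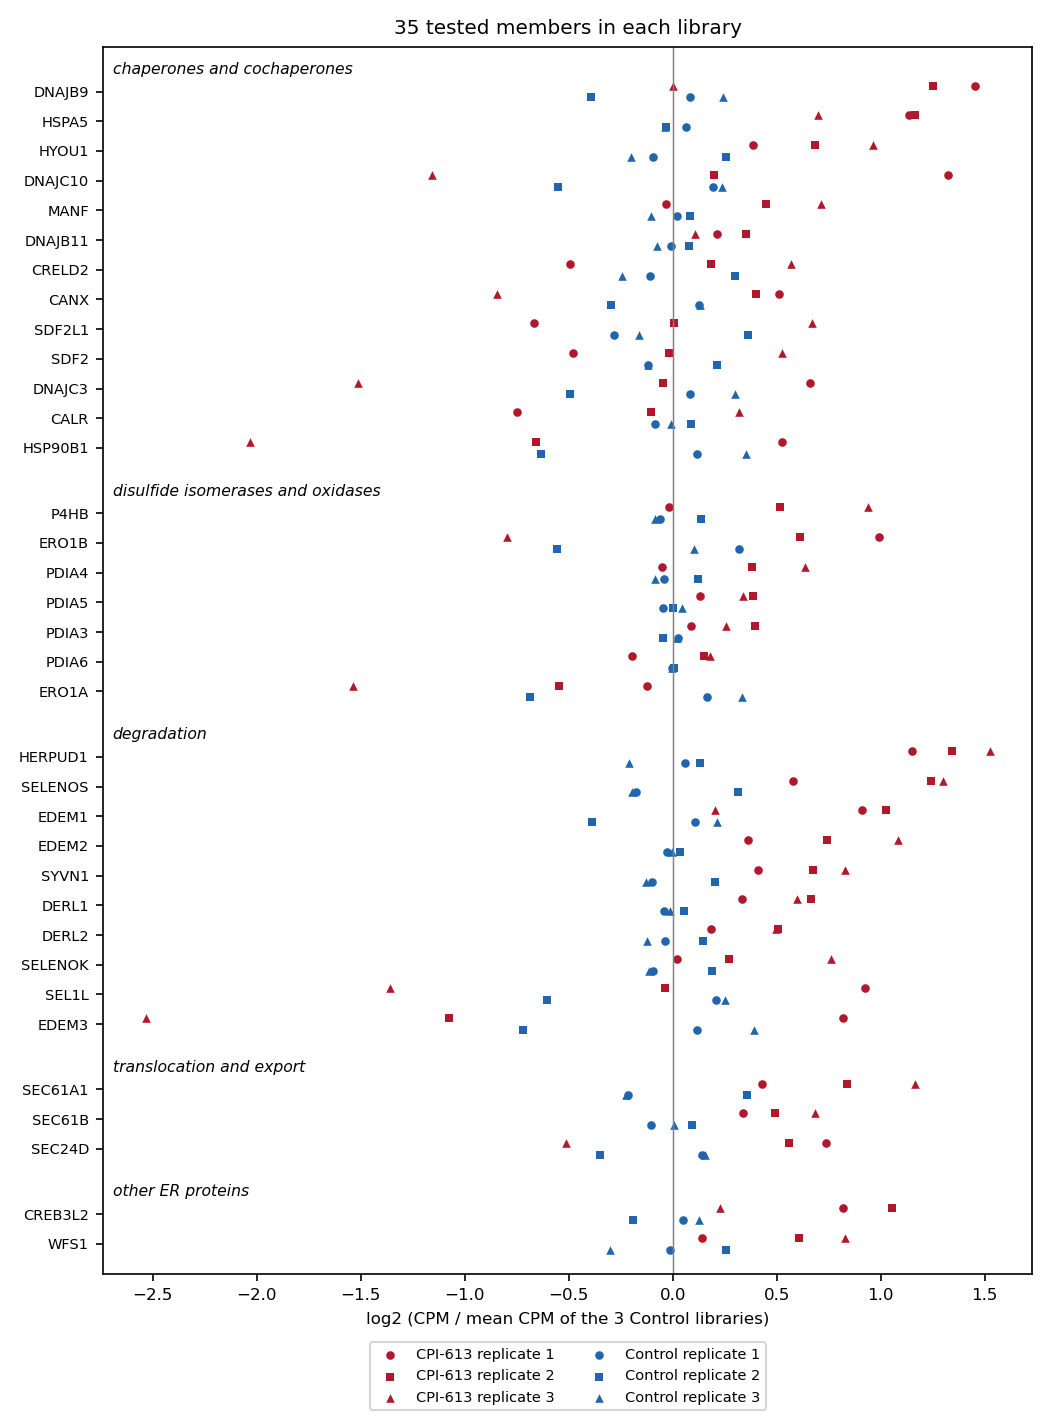
Values of the 35 tested members in each library, as log2 of CPM over the mean CPM of the Control libraries on the horizontal axis, grouped by role and ordered by fold change within each group. Red symbols are CPI-613 and blue symbols Control, with circles, squares and triangles for replicates 1, 2 and 3. All 3 HERPUD1 and HSPA5 symbols of CPI-613 lie to the right of Control, whereas those of HSP90B1, EDEM3 and DNAJC10 spread to both sides.

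The disulfide enzymes gave no call in either fit, over 7 tested members. Their median log2 fold change was 0.29 and, GC-adjusted, 0.21. P4HB, which encodes the protein disulfide isomerase PDI, had 1113, 1608 and 2155 CPM with CPI-613, against 1080, 1238 and 1060 CPM in Control. CPI-613 replicate 1 lay within the Control range and the other CPI-613 libraries above it. P4HB gave a log2 fold change of 0.53 (SE 0.27; edgeR, Benjamini-Hochberg adjusted p = 0.458) and, GC-adjusted, 0.36 (SE 0.11; adjusted p = 0.0874). ERO1A, the oxidase that recharges PDI, had 199.3, 148.6 and 74.84 CPM with CPI-613, against 243.8, 135 and 273.8 CPM in Control. It was the one member whose estimate lay below 0 in the main fit and in all 25 alternatives, at -0.63 (SE 0.41) and, GC-adjusted, -0.17 (SE 0.17), without a call in any of them. PDIA3, PDIA4, PDIA5, PDIA6 and ERO1B ranged from 0.05 to 0.45 and, GC-adjusted, from 0.12 to 0.86. PDIA3 has a near-identical pseudogene, so its counts are uncertain.

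Among the degradation factors, HERPUD1 had the highest log2 fold change of all members in the main fit, and SELENOS was next. HERPUD1 encodes HERP, a membrane protein that organises the HRD1 complex, and had 118.4, 135.5 and 153.6 CPM with CPI-613, against 55.58, 58.4 and 46.21 CPM in Control. The lowest CPI-613 library was well above the highest Control library. It rose by a log2 fold change of 1.35 (SE 0.19; edgeR, Benjamini-Hochberg adjusted p = 0.0159), a 2.54-fold difference, and GC-adjusted by 1.31 (SE 0.16; adjusted p = 0.0023). HERPUD1 was called in 21 of the 25 alternatives, with an adjusted p of 1.3e-07 to 0.124. The exceptions were the fit with a replicate block (adjusted p = 0.0659) and those without CPI-613 replicate 2 (0.12), Control replicate 1 (0.124) or Control replicate 3 (0.121), all before GC adjustment.

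SELENOS, a selenoprotein that ties the ATPase p97 to the retrotranslocation complex, had 50.77, 80.26 and 83.67 CPM with CPI-613, against 30.1, 42.24 and 29.63 CPM in Control. The groups did not overlap. Its log2 fold change was 1.07 (SE 0.27; edgeR, Benjamini-Hochberg adjusted p = 0.102) and, GC-adjusted, 0.95 (SE 0.16; adjusted p = 0.00925). SYVN1, the ubiquitin ligase HRD1 itself, had 100.4, 120.7 and 134.5 CPM with CPI-613, against 70.63, 87.21 and 69.19 CPM in Control, again without overlap. It stood at 0.65 (SE 0.20; edgeR, Benjamini-Hochberg adjusted p = 0.163) and, GC-adjusted, at 0.54 (SE 0.12; adjusted p = 0.025) on the log2 scale. DERL1, a derlin of the retrotranslocation channel, had 152.9, 192.3 and 183.8 CPM with CPI-613, against 118, 125.9 and 120.1 CPM in Control. These did not overlap, and neither fit called it, at 0.54 (SE 0.17; edgeR, Benjamini-Hochberg adjusted p = 0.177) and, GC-adjusted, 0.69 (SE 0.22; adjusted p = 0.091).

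The EDEM proteins, which trim mannose from glycoproteins and mark them for degradation, behaved unequally between libraries. EDEM1 had 157.3, 170.8 and 96.61 CPM with CPI-613, against 90.38, 64.07 and 96.99 CPM in Control, with CPI-613 replicate 3 level with the highest Control library. Its log2 fold change was 0.76 (SE 0.28; edgeR, Benjamini-Hochberg adjusted p = 0.256) and, GC-adjusted, 0.87 (SE 0.14; adjusted p = 0.00776). EDEM2 had 27.02, 35.13 and 44.47 CPM with CPI-613, against 20.62, 21.51 and 20.93 CPM in Control. The groups did not overlap, and the log2 fold change was 0.76 (SE 0.25; edgeR, Benjamini-Hochberg adjusted p = 0.199) and, GC-adjusted, 0.58 (SE 0.13; adjusted p = 0.0291). EDEM3 had 54.62, 14.68 and 5.346 CPM with CPI-613, against 33.55, 18.79 and 40.63 CPM in Control, a wider range within CPI-613, relative to its mean, than in any other tested member. Its log2 fold change of -0.32 (SE 0.76) was not called, and GC-adjusted it was -0.19 (SE 0.34).

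SEL1L, the HRD1 adaptor, DERL2 and the selenoprotein SELENOK ranged from 0.12 to 0.40 on the log2 scale and, GC-adjusted, from 0.40 to 1.03, without a call in either fit. The standard error of DERL2 was 0.47 and that of SELENOK 0.37 in the GC-adjusted fit, both larger than without the adjustment. DERL3, the third derlin, had 0, 1 and 0 counts in the CPI-613 libraries and 0 in each Control library, and was not tested. A count of 0 allows up to 3 counts, 0.229 to 0.235 CPM in the Control libraries. Summed over the subgroup, degradation factors had 899.6, 937 and 852.2 CPM with CPI-613, against 587.4, 559.9 and 591.4 CPM in Control, without overlap. The summed CPM of the chaperones, the translocation and export factors and the other ER proteins did not overlap either. Those of the disulfide enzymes did.

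Of the translocation and export factors, the channel subunits were higher in every CPI-613 library. SEC61A1, the pore-forming subunit, had 621.5, 827.1 and 1037 CPM with CPI-613, against 398.1, 592.9 and 395.8 CPM in Control. Its lowest CPI-613 library was close to Control replicate 2. SEC61A1 gave a log2 fold change of 0.84 (SE 0.27; edgeR, Benjamini-Hochberg adjusted p = 0.183) and, GC-adjusted, 0.72 (SE 0.16; adjusted p = 0.028). SEC61B, a small subunit of the same channel, had 77.65, 86.33 and 98.78 CPM with CPI-613, against 57.14, 65.54 and 61.56 CPM in Control, at 0.51 (SE 0.18; edgeR, Benjamini-Hochberg adjusted p = 0.237) and, GC-adjusted, 0.49 (SE 0.11; adjusted p = 0.0255). SEC24D, a cargo adaptor of the COPII coat that buds vesicles from the ER, had 101.4, 89.49 and 42.61 CPM with CPI-613, against 67.02, 47.68 and 67.59 CPM in Control. The groups overlapped and SEC24D was not called, at 0.36 (SE 0.34) and, GC-adjusted, 0.39 (SE 0.20).

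CREB3L2, a membrane-bound transcription factor of the ER related to ATF6, had 67.95, 79.95 and 45.17 CPM with CPI-613, against 39.82, 33.78 and 42.01 CPM in Control. The groups did not overlap, though CPI-613 replicate 3 was near the Control range. CREB3L2 gave a log2 fold change of 0.74 (SE 0.26; edgeR, Benjamini-Hochberg adjusted p = 0.232) and, GC-adjusted, 0.73 (SE 0.16; adjusted p = 0.0265). WFS1, the ER membrane protein wolframin, had 16.9, 23.37 and 27.19 CPM with CPI-613, against 15.21, 18.33 and 12.45 CPM in Control. These overlapped, and neither fit called it, at 0.55 (SE 0.28) and, GC-adjusted, 0.43 (SE 0.15).

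Set beside the promoters, 3 of the 9 members with an ERSE or ERSE-II were called in the GC-adjusted fit (HSPA5, HYOU1 and HERPUD1), against 9 of the 23 matched members without either. The median GC-adjusted log2 fold change was 0.40 with an element and 0.43 without, and before adjustment it was 0.15 with an element and 0.41 without. HSP90B1 and CALR hold the full ERSE in the sequences above and were not called. DNAJB9, EDEM1, EDEM2, SELENOS, SYVN1, SEC61A1, SEC61B and CREB3L2 were called in the GC-adjusted fit and hold none of the 4 motifs in this window. These counts are given as a description, with no test.

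Other genes of the secretory pathway were called higher at shares near those of all tested genes. Over 133 tested genes of 7 other lists 3 rose in the main fit (2.26%) and 0 fell, where 1.94% of all tested genes were called higher. Their median log2 fold change was 0.22, against 0.02 over all tested genes. With GC adjustment 10 were called higher (7.52%) and 0 lower, where 6.61% of all tested genes were called higher. The difference from the members was not tested. FKBP9, a prolyl isomerase of the ER, had 367.8, 448.3 and 514.5 CPM with CPI-613, against 213.7, 212.1 and 207 CPM in Control, and rose by 1.07 (SE 0.18; edgeR, Benjamini-Hochberg adjusted p = 0.0287) on the log2 scale. AGR2, a disulfide isomerase of secretory epithelia, had 2.282, 2.998 and 2.867 CPM with CPI-613, against 0.8622, 0.6989 and 1.146 CPM in Control, and rose by 1.58 (SE 0.32; edgeR, Benjamini-Hochberg adjusted p = 0.0474). SEL1L3, a relative of SEL1L that was listed with the degradation machinery, had 76.08, 82.72 and 79.56 CPM with CPI-613, against 33, 33.47 and 34.22 CPM in Control, and rose by 1.24 (SE 0.17; edgeR, Benjamini-Hochberg adjusted p = 0.0148). In each of these genes every CPI-613 library lay above every Control library. FKBP9 was called in 20, AGR2 in 10 and SEL1L3 in 21 of the 25 alternatives, and AGR2 rests on 9 to 39 counts per library. No gene was called in the main fit among 14 tested genes of the lectin cycle, 22 other translocation genes, 13 other COPII genes and 12 oligosaccharyltransferase subunits.

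The sensors and factors that act on the members were mixed. Of 13 tested, 4 rose in the main fit (ERN1, XBP1, DDIT3 and PPP1R15A; 30.8%) and 0 fell, where 1.94% of all tested genes were called higher. With GC adjustment 5 were called higher (38.5%) and 0 lower, where 6.61% of all tested genes were called higher. This list too was chosen with earlier results of these data known, and the difference was not tested. ERN1, which encodes IRE1, had 84.35, 88.1 and 75.23 CPM with CPI-613, against 25.71, 24.77 and 23.52 CPM in Control, and XBP1 had 382.6, 503.6 and 528.9 CPM with CPI-613, against 137.3, 160.8 and 128.3 CPM in Control. DDIT3 (CHOP) had 107.6, 113 and 119.1 CPM with CPI-613, against 27.98, 35.26 and 28.95 CPM in Control. Their log2 fold changes of 1.74 (SE 0.18), 1.73 (SE 0.20) and 1.88 (SE 0.19) compare with 1.35 (SE 0.19) for HERPUD1, the highest of the members, and passed (edgeR, Benjamini-Hochberg adjusted p = 0.0072, 0.00943 and 0.0072). ATF4 had 806.9, 942 and 1193 CPM with CPI-613, against 441.9, 579.2 and 450.9 CPM in Control, at 1.00 (SE 0.22; edgeR, Benjamini-Hochberg adjusted p = 0.0679) and, GC-adjusted, 0.85 (SE 0.12; adjusted p = 0.00404). It was called in 13 of the 25 alternatives. ATF6, with 91.69, 100.3 and 78.09 CPM with CPI-613 against 71.17, 61.58 and 77.37 CPM in Control, and EIF2AK3 (PERK), with 32.73, 28.68 and 11.31 CPM with CPI-613 against 21.01, 15.07 and 25.51 CPM in Control, were called in neither fit, at 0.36 (SE 0.19) and 0.24 (SE 0.42) and, GC-adjusted, 0.85 (SE 0.31) and 0.33 (SE 0.23). CREB3L1, a relative of CREB3L2 named after its values were seen, had 0.3565, 0.5381 and 0.4648 CPM with CPI-613, against 1.333, 0.9319 and 0.9165 CPM in Control. The groups did not overlap, and neither fit called it, at -1.21 (SE 0.37; edgeR, Benjamini-Hochberg adjusted p = 0.163) and, GC-adjusted, -1.36 (SE 0.37; adjusted p = 0.0534). CREB3L1 rests on 5 to 17 counts per library, and its estimates ran from -1.53 to -0.32 over 22 alternatives, with 0 calls. Splicing of XBP1 RNA and protein levels were not measured here.

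Per transcript length, in FPKM (counts scaled by transcript length and library total), the members ranged from the most abundant genes of these cells to barely detected ones. HSPA5 averaged 937.7 ± 243.1 FPKM with CPI-613 and 526 ± 38.43 FPKM in Control (SD, n = 3 each), and ranked 91 of 16330 genes with CPI-613 and 159 in Control. CALR averaged 808.2 ± 201.1 FPKM with CPI-613 and 1027 ± 22.29 FPKM in Control, so that HSPA5 stood above it in the CPI-613 mean and below it in the Control mean. The CPI-613 SDs of the pair are larger than the gap between their means. P4HB averaged 673.2 ± 144.2 FPKM with CPI-613, below both, and 546 ± 29.85 FPKM in Control, where it and HSPA5 differed by less than their SDs. HERPUD1 averaged 48.15 ± 0.8711 FPKM with CPI-613 and 21.84 ± 2.452 FPKM in Control, and ranked 1915 with CPI-613 and 4069 in Control. The lowest tested member was ERO1B at 0.983 ± 0.6086 FPKM with CPI-613 and 0.93 ± 0.1646 FPKM in Control. FPKM are not TMM-scaled. On that scale the CPI-613 libraries lay wholly above Control in 10 members and wholly below in 2, CALR and PDIA6, where 8.38% of 12641 tested genes with an FPKM value lay wholly above and 15.4% wholly below.

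**Figure D5:**
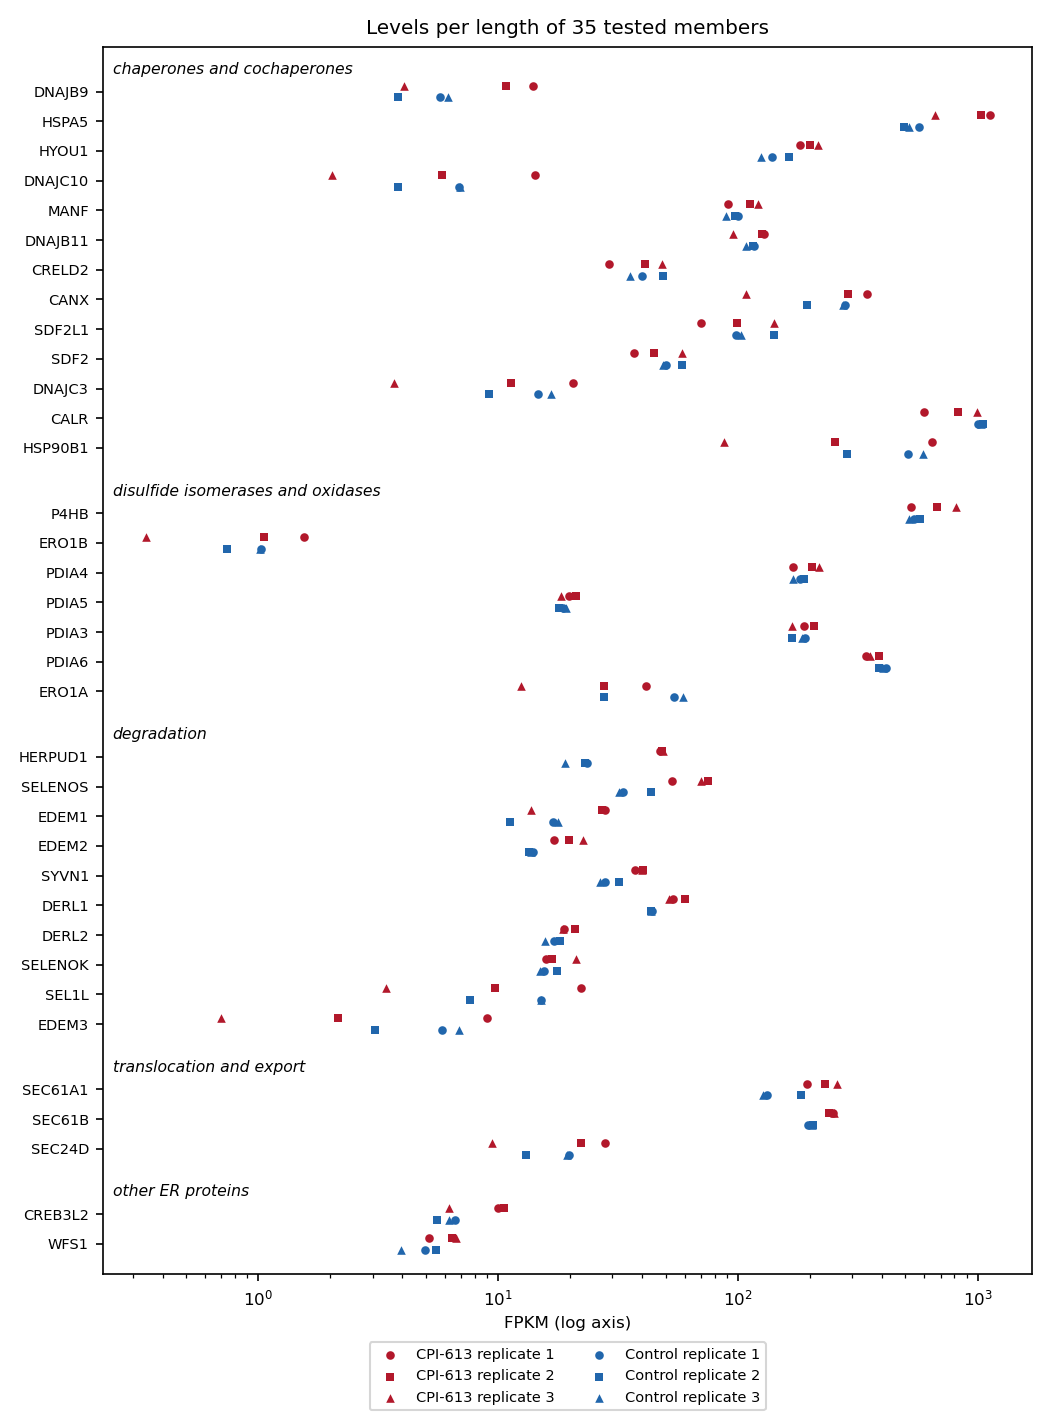
Levels per length of the 35 tested members in each library, in FPKM on a log axis, grouped by role. Red symbols are CPI-613 and blue symbols Control, with circles, squares and triangles for replicates 1, 2 and 3. By group mean HSPA5, CALR and P4HB lie highest, at 526 to 1027 FPKM, and ERO1B lies lowest, at 0.93 to 0.983 FPKM. In single libraries HSP90B1 lies above some of the highest, as in CPI-613 replicate 1 at 644.1 FPKM.

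The counts are estimates per transcript, and 11 members have a single transcript in the table, among them HSPA5, HSP90B1, CALR, DNAJB9 and SEC61A1. In HERPUD1 the most abundant of 3 transcripts took 94.49%, 95.39% and 95.26% of the gene's counts with CPI-613, against 91.08%, 90.87% and 87.3% in Control, without overlap. In EDEM2 the main transcript took 95.88%, 100% and 94.9% with CPI-613, against 94.23%, 93.04% and 90.81% in Control, also without overlap. SDF2 went the other way, at 81.51%, 86.3% and 86.7% with CPI-613, against 92.29%, 87.32% and 86.86% in Control. How many of all genes separate in this way was not counted, and these splits were not tested. In CREB3L2 it took 99.51%, 97.38% and 97.26% with CPI-613, against 66.88%, 40.1% and 100% in Control, so the split between transcripts varied widely within Control. Among the members, DNAJC10, PDIA3, PDIA6, CANX, SYVN1, EDEM2, DERL2, DERL3 and SEC61A1 overlap another coding gene. Whether reads were counted by strand is not given in the sources used here, so reads of such neighbours could not be told apart.

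The libraries held 13458530, 13896449 and 15486513 counts in CPI-613 replicates 1 to 3 and 11531942, 12508570 and 12171790 counts in Control replicates 1 to 3. All 9 squamous epithelial markers were present, at a summed 2162 to 4672 FPKM with CPI-613 and 3768 to 6119 FPKM in Control. Endothelial markers summed to 0.03 to 0.08 FPKM with CPI-613 and 0.26 to 0.63 FPKM in Control. Of the fibroblast markers 3 of 6 were in the table and summed to 5.71 to 6.09 FPKM with CPI-613 and 6.47 to 7.96 FPKM in Control, almost all of it COL1A1, with COL3A1 at 0 to 0.05 FPKM. Of the leukocyte markers 4 of 6 were in the table and summed to 29.49 to 46.89 FPKM with CPI-613 and 44.35 to 71.29 FPKM in Control, most of it CD68 and CD14, while PTPRC stood at 0 to 0.07 FPKM.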

How the data were processed

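RNA of 3 CPI-613 and 3 Control samples of HN12 cells was sequenced on a DNBSEQ instrument after TRIzol extraction and a NEBNext Ultra II kit, per the labels' protocols. Build hg38 and, with no role stated, STAR 2.5, CASAVA, edgeR 3.16.5, HTSeq and DESeq2 appear in the submitters' processing notes. The authors deposited estimated counts per RefSeq transcript (79031 transcripts of 16330 genes), and a table per gene whose unit is not named. It was read as FPKM made by the authors, since over 1144 single-transcript genes it matched counts per length and total within 0.39%. In 27 transcripts a cell of CPI-613 replicate 1 holds a date, and these were left out, which touched no member. The 53 genes without a symbol hold 0.016% of the counts.

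Estimated counts were summed per gene, rounded, filtered (filterByExpr), TMM-scaled and tested with edgeR 4.0.16 (quasi-likelihood, group only, two-sided, Benjamini-Hochberg over 12671 genes at 0.05; R 4.3.3). SE is the log2 fold change over the square root of F. The GC-adjusted fit adds offsets from natural splines of 5 df on GC content and log2 length of the longest coding GENCODE 29 transcript (99.45% of tested genes). Other alternatives used DESeq2 1.42.0, limma 3.58.1 and FPKM with a pseudocount of 1 or 0.1. The fits were also run on simulated counts, with less spread than was fitted here and partly with the very trend that the adjustment removes. Such runs check the code and cannot show how well either fit performs on these libraries. No library pair agreed within counting noise (lowest chi-square per degree of freedom 3.86), so precision rests on 3 libraries per group. Members and lists were chosen with earlier results of these data known. Every library's value is given for members called, at an unadjusted p under 0.05, at either end of a subgroup, and for HSPA5, HSP90B1 and CALR. Up to 2 called genes per other list, and 6 sensors and factors, are named. Coordinates and promoters come from RefSeq, GRCh38.p14.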

Additional observations from a re-analysis of the deposited data

How the results depend on the processing

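Over all genes 403 were called. DESeq2 called 893, a replicate block 191, the GC-adjusted fit 1471 (399 of the 403 among them) and the GC-adjusted fit with a replicate block 889. Leaving out 1 library gave 905, 7 and 657 calls for CPI-613 replicates 1, 2 and 3, and 0, 219 and 0 for Control replicates 1, 2 and 3. In the fits with 0 calls, 1064 (no Control replicate 1) and 1118 (no Control replicate 3) genes had an unadjusted p under 0.05. With GC adjustment the same order gave 2638, 606 and 1438, then 618, 1426 and 644, in fits added after seeing the data. The share of calls that were higher was 61.0%. It was 46.9% with scaling by library size, where the median of all genes was -0.17.

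Of the members 1 was called. DESeq2 called 3, limma-voom 2, the replicate block 0, the GC-adjusted fit 12 and the GC-adjusted fit with a replicate block 7. Of all tested genes the main fit called 3.18% in either direction. The other fits, in the order given, called 7.05%, 3.27%, 1.51%, 11.6% and 7.02%. Leaving out 1 library, in the order above, gave 4, 0 and 5, then 0, 1 and 0, and with GC adjustment 18, 4 and 14, then 4, 10 and 4. The shares of all tested genes called were 7.08%, 0.0545% and 5.11%, then 0.00%, 1.70% and 0.00%. With GC adjustment they were 20.6%, 4.72% and 11.2%, then 4.83%, 11.1% and 5.03%. The cause was not tested beyond the adjustment itself. Members without overlap were 14 higher with TMM, 13 with median-of-ratios and 11 with upper quartile scaling, 10 higher and 1 lower (CALR) by library size, and 10 higher and 2 lower in FPKM. In the same order 11.8%, 11.6%, 9.64%, 8.29% and 8.38% of all genes lay wholly above. Wholly below lay 9.17%, 9.64%, 12.1%, 15.8% and 15.4%. Estimates lay above 0 in all 25 alternatives for 22 members, below 0 in all for 1, and on both sides for 12, none of them reversing a call.

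Deviations of same-numbered libraries from their group means correlated at 0.564, -0.2 and -0.699 over 10868 genes. CPI-613 replicate 3 correlated best with Control replicate 2 (0.746). These values were not GC-adjusted, and the libraries differed along GC content. They therefore cannot settle whether the replicate numbers paired the samples. With 3 libraries per group, the spread between libraries limits what was detectable, as for EDEM3 (SE 0.76, and 0.34 with GC adjustment).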
